A study of Mus musculus with 8 samples.

Results

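Libraries of sorted mouse spermatocytes covered the leptotene and zygotene (LZ) and the pachytene and diplotene (PD) stages. By their mean levels, 40 of the 23235 gene symbols measured were low at LZ and higher at PD in both genotypes. Their means in the Cnot4-null PD libraries were at least 0.6 times the WT PD mean, and 18 of the 40 reached this in both libraries. Levels are FPKM, counts of sequenced fragments scaled to the length of the transcript and to the number of mapped fragments. The genes were chosen by their measured values. Group means of the 2 libraries had to be under 1 FPKM at LZ for both genotypes, at least 10 FPKM in WT PD, and in Cnot4-null PD at least 0.6 times the WT PD mean. Symbols starting with Mir, Snora or Snord were left out, which removed 3 that passed the other conditions. A further 219 genes passed the same conditions except the last and are called the other PD-activated genes. The retained genes thus made up 15.4% of 259 PD-activated genes. All 4 groups entered the rule, so the levels below describe the genes, and no test is drawn from them.

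The study compared WT and Cnot4-null spermatocytes, with 2 libraries in each of 4 groups. Per the labels the mice were males of strain C57BL/6 and the genotypes WT and Cnot4-KO. The methods describe sorting of cells from 6-week-old mice by Hoechst and propidium iodide staining. In the knockout line described by the study, floxed Cnot4 (Cnot4 fl/fl) is deleted by Stra8-Cre. This Cre acts in male germ cells, so somatic cells of the testis keep the gene. Whether the WT mice carried the floxed allele or the Cre is not given in the sources used here. The labels number the duplicates as replicates without saying what they share. With 2 against 2 an exact two-sided test cannot give a p below 0.333.

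CNOT4 is a ubiquitin ligase subunit linked to CCR4-NOT, the complex that shortens the poly(A) tails of mRNAs before their decay. Entry into pachytene is when spermatocytes begin to transcribe many genes used only later, in spermatids, among them the motor proteins of the sperm tail and proteins of the acrosome. The transcription factors A-MYB and RFX2 are known activators of this programme.

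Promoter windows of the retained genes most abundant in WT PD are shown here because the genes were activated together at PD. The RefSeq table (GRCm38.p6) gives 300 bases for each start, 250 before it and 50 after it. Of the 40 genes 26 had an entry. Capitals mark the MYB motif (AACTG or AACGG), the TGACG core of cAMP response elements and the TATA box (TATAAA), each searched on both strands. Where 2 of these motifs overlap, their joint stretch is in capitals. Each window reads 5′ to 3′ on the strand of its gene. Where the table gives several starts for a gene, its first window is shown.
Plcd4, chr1:74542639-74542938, plus strand: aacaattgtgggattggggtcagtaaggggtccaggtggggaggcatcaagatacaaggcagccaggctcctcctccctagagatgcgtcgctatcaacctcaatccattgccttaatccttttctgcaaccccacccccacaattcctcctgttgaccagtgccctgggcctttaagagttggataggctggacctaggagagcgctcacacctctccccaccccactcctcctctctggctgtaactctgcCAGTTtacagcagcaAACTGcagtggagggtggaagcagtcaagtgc
1700110K17Rik, chr9:40333222-40333521, plus strand: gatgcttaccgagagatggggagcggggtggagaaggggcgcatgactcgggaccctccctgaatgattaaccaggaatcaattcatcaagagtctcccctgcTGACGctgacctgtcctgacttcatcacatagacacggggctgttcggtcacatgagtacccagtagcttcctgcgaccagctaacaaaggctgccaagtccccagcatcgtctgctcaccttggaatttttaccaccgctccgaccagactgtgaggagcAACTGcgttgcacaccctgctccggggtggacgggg
Ttll6, chr11:96133536-96133835, plus strand: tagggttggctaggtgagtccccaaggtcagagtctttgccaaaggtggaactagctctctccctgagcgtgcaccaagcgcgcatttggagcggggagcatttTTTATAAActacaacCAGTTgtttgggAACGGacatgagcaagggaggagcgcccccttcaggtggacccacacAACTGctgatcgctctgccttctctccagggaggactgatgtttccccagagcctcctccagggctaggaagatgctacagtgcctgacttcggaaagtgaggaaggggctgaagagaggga
Pnma1, chr12:84148440-84148739, minus strand: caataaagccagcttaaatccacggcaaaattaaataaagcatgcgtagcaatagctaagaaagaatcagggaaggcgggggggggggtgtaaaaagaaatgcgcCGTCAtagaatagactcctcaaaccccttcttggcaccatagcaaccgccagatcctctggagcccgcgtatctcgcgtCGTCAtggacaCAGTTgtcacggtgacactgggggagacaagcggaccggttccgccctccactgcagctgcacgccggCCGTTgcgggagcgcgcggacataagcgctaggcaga
These are the 4 retained genes with the highest WT PD level that had an entry holding a searched motif, since Poteg and Tex24 had no entry. Plcd4 holds the MYB motif at positions 4 and 19, counted from the start base as 1. 1700110K17Rik holds it at position 15, and TGACG 147 bases before the start. In Ttll6 the MYB motif occurs 3 times, and the TATA box lies 146 and 144 bases before the start, as 2 overlapping matches on opposite strands. Pnma1 holds 2 MYB motifs and 2 TGACG motifs. Over all 32851 windows of this length in the table, 55.1% hold the MYB motif, 20.8% TGACG and 13.6% the TATA box. In the first window of each of the 26 retained genes with an entry, the MYB motif was present in 17, TGACG in 6, the TATA box in 4 and the RFX motif GTTGCC in 6. The full element TGACGTCA, which contains TGACG, was in 0. GTTGCC is in 12.5% of all windows and TGACGTCA in 1.79%. Counted in the same way, by the first window of each of all 17529 genes with an entry, the shares are 53.9% for the MYB motif, 24.5% for TGACG, 12.9% for the TATA box, 12.3% for GTTGCC and 2.42% for TGACGTCA. Only 65.0% of the retained genes, 79.0% of the other PD-activated genes and 75.4% of all genes had an entry, under the 80% set as a minimum, so a comparison of motif shares between these sets is void. A match of letters is a description and says nothing of binding.

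The knocked-out gene itself was measured in every library. At LZ the level of Cnot4 was 36.0 and 34.9 FPKM for WT and 43.2 and 34.6 FPKM for the null cells. At PD it was 76.6 and 73.1 FPKM for WT and 65.9 and 53.5 FPKM for the null cells, which were below both WT libraries. A value per gene cannot show the loss of a single exon, so these levels do not test the genotype.

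The Cnot4-null PD libraries stood apart from the other libraries and from each other. The Spearman correlation across the 15899 genes above 1 FPKM in at least 1 library was 0.892 between them and 0.968 between the WT PD libraries. Genes are not independent replicates. More genes were above 1 FPKM in Cnot4-null PD (13887 and 14249) than in WT PD (10103 and 10076). Markers of other testis cells were far higher in the Cnot4-null PD libraries than in WT PD. For 8 Leydig cell markers the summed level was 10082 and 22306 FPKM in Cnot4-null PD against 116 and 7.07 in WT PD and 9.89 to 19.0 at LZ. Nearly all of it was Insl3, the peptide hormone of Leydig cells, at 9669 and 21608 FPKM. The steroidogenic enzyme genes Cyp17a1 (168 and 278 FPKM), Hsd3b1 (89.7 and 216 FPKM) and Cyp11a1 (67.3 and 77.5 FPKM) were also high there. None of the 8 was listed at 0 in either Cnot4-null PD library, whereas 5 of 8 were in WT PD replicate 2 and 0 of 8 in WT PD replicate 1.

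Markers of spermatids, the haploid cells after meiosis, were higher in the null cells at PD as well. The 10 spermatid markers summed to 16316 and 7345 FPKM in Cnot4-null PD and 460 and 284 in WT PD, with the protamine gene Prm1 at 7592 and 2949 FPKM in Cnot4-null PD and 176 and 74.8 FPKM in WT PD. None of the 10 was listed at 0 in any library. In WT LZ these markers summed to 1853 and 1569 FPKM and in Cnot4-null LZ to 4078 and 721, so they were measured at both stages and in both genotypes. The 12 pachytene and diplotene markers were each lower in both Cnot4-null PD libraries (23.1% of all genes were), with sums of 13194 and 12265 FPKM in WT PD against 6140 and 2185 in Cnot4-null PD. Ldhc, a testis lactate dehydrogenase, made up most of that sum in each PD library. At LZ this list summed to between 121 and 377 FPKM.

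The summed markers of other somatic cells were also higher in Cnot4-null PD than in WT PD, with the higher sum in replicate 2. The 9 peritubular and endothelial markers, led by smooth muscle actin Acta2 in Cnot4-null PD, summed to 65.7 and 299 FPKM against 4.001 and 2.56 in WT PD. The 9 macrophage markers, led by Lyz2 in Cnot4-null PD, summed to 32.8 and 138 against 3.45 and 3.28 FPKM. The 11 measured Sertoli cell markers, led by Clu, summed to 140 and 257 against 16.9 and 33.5 FPKM, while Fshr was listed at 0 in all 4 PD libraries and Amh in 3. Clu alone gave 94.6 and 196 FPKM of the Cnot4-null PD sums, and 7 of the 11 were higher in both libraries, against 58.2% of all genes, while Amh, Cldn11, Fshr and Defb36 overlapped. All 9 macrophage and all 9 peritubular and endothelial markers were higher in both. In WT LZ the macrophage markers summed to 42.7 and 1.40 FPKM and the Sertoli markers to 121 and 117 FPKM. In Cnot4-null LZ the macrophage markers summed to 15.6 and 5.15 FPKM and the Sertoli markers to 21.4 and 24.3 FPKM. At LZ the Sertoli sum was thus lower in the Cnot4-null libraries than in the WT libraries, opposite in direction to PD. The 12 spermatogonial markers summed to 392 and 500 against 70.4 and 84.8 FPKM. Of these 12, 10 were higher, Id4 was lower and Nanos2 overlapped. The 10 leptotene and zygotene markers were mixed, with 6 higher in both Cnot4-null PD libraries (among them Stra8, at 228 and 149 FPKM against 8.70 and 6.47), 3 lower (Sycp3, Spo11 and Hormad1) and 1 overlapping, where 58.2% of all genes were higher and 23.1% lower. Their sum, with Sycp3 the largest value, was lower, at 1045 and 662 against 1245 and 1298 FPKM. In bulk libraries, fewer cells of a type and less RNA per cell cannot be told apart. The part of these other cell types in the levels of the retained genes was not tested.

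**Figure D1:**
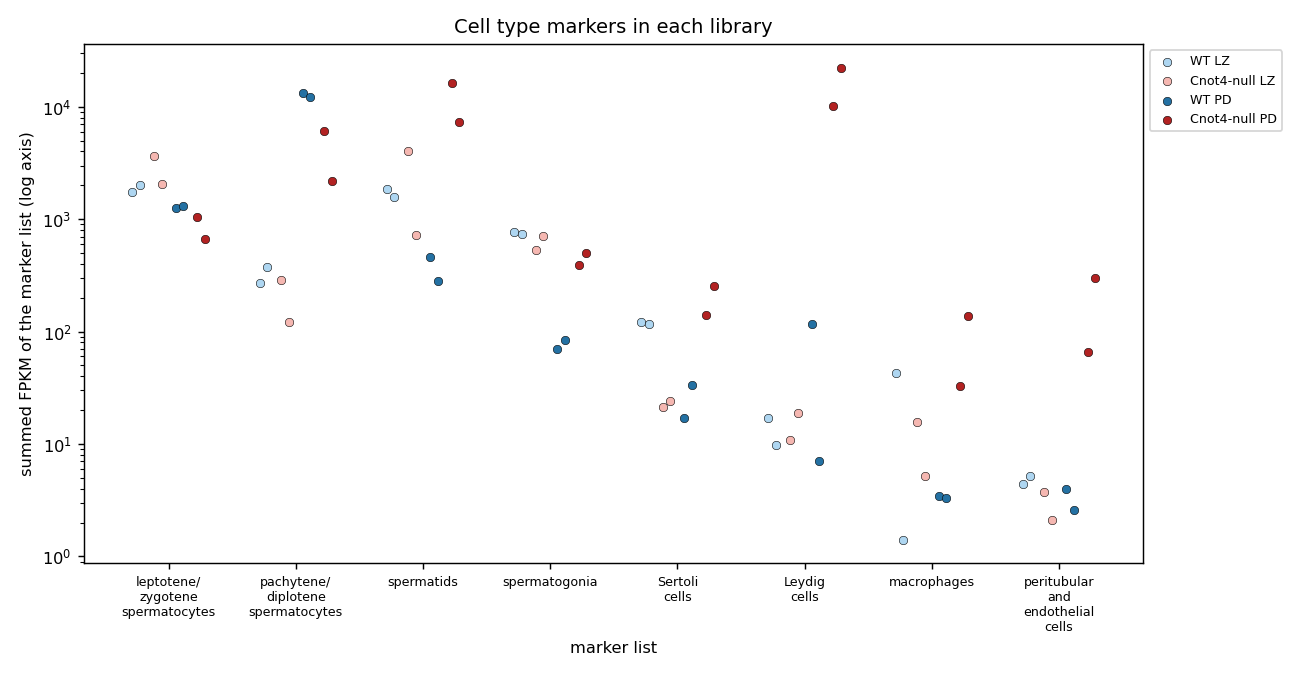
Summed FPKM (log axis) of each cell type marker list, with 1 point for each of the 8 libraries and colours for the 4 groups. The Leydig cell list stands at 10082 and 22306 FPKM in Cnot4-null PD and at 116 FPKM or less in every other library.

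In WT PD the retained genes had a lower median level than the other PD-activated genes. Their WT PD means ran from 10.01 to 42.3 FPKM with a median of 14.9, against a median of 24.1 and a highest value of 257 FPKM for the other PD-activated genes. Only 8 of the 40 reached a mean of 20 FPKM, compared with 125 of the 219. The median of the Cnot4-null PD means was 13.0 FPKM for the retained and 7.41 FPKM for the other genes. At LZ, 21 of the 160 values of the retained genes were listed at 0, but no gene was at 0 in all 4 LZ libraries. All 40 passed the filter on low values (above 1 FPKM in at least 1 library), which the WT PD limit alone guarantees.

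**Figure D2:**
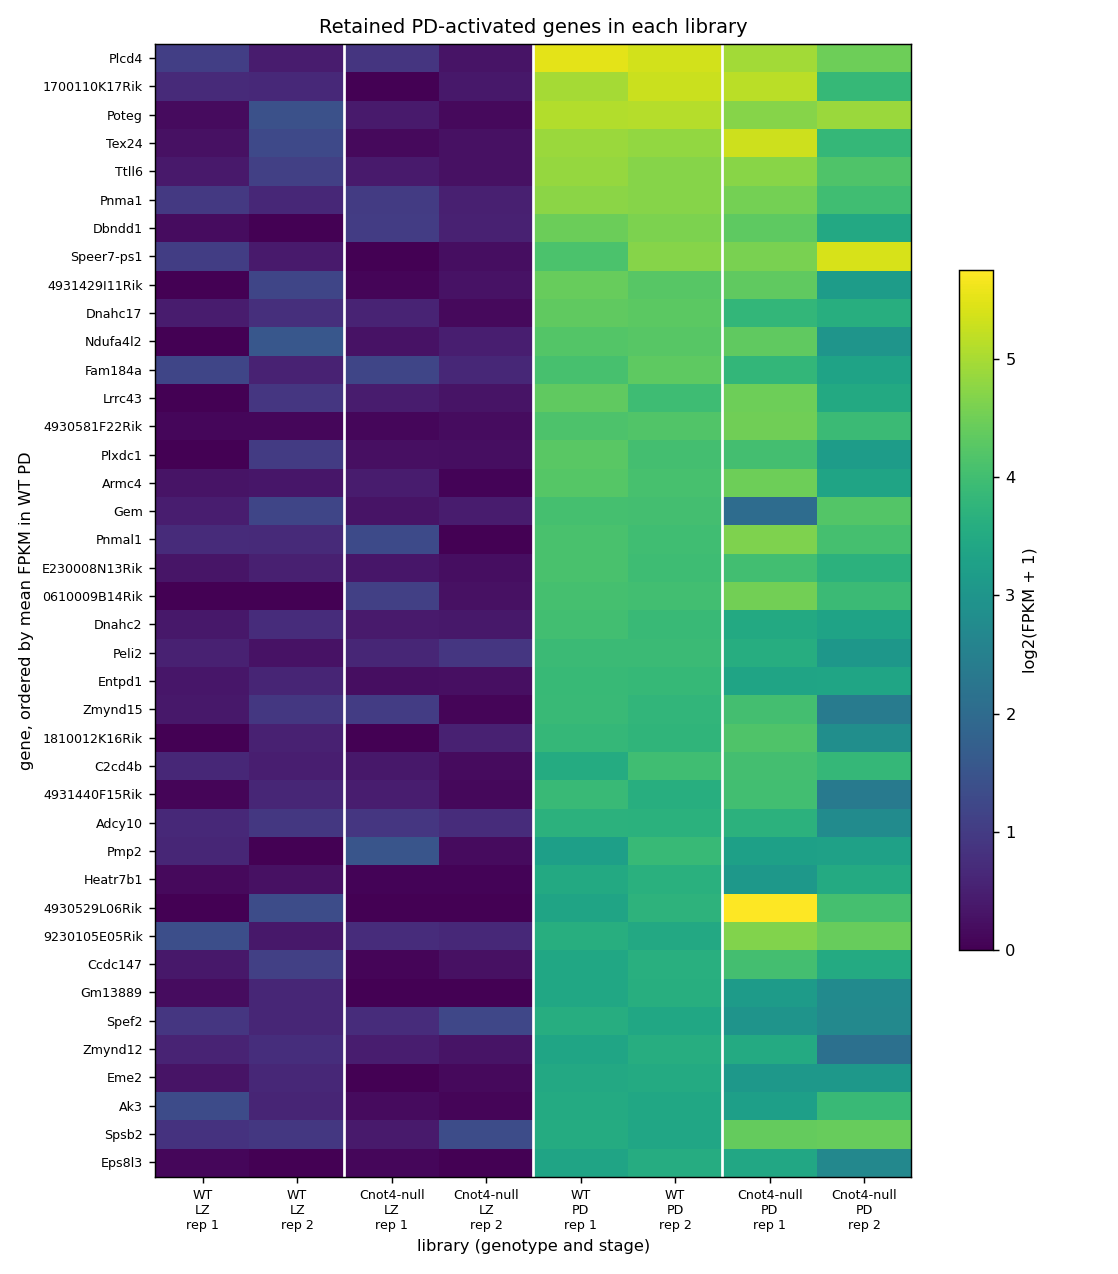
log2(FPKM + 1) of the 40 retained genes (rows, by mean WT PD level) in the 8 libraries (columns, separated by group). Levels are dark at LZ and bright at PD, as the rule demands, and Cnot4-null PD replicate 2 is darker than replicate 1 for 32 of the 40.

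The ratio of the Cnot4-null PD mean to the WT PD mean had a median of 0.768 over the retained genes, a log2 ratio of -0.38, and the rule sets its floor. With these genes kept, a reading added after seeing the data, the median ratio was 0.489 after quantile normalization, with 13 of the 40 at or above 0.6, and 0.554 after rescaling to the same median, with 17, so the level depends on the scaling. As deposited, the ratios ran from 0.602 to 3.20, and 10 genes were at 1 or above. Across all 259 PD-activated genes the median was 0.375, and over the other 219 it was 0.339. The ratios form a single run through the limit with no gap there. The 4 genes just inside were Spef2 (0.602), Plcd4 (0.606), Fam184a (0.638) and Peli2 (0.639), and the 4 just outside were 4930441J16Rik (0.599), Cap2 (0.599), 4933412E24Rik (0.598) and Boc (0.594). At the limit of 10 FPKM, Eps8l3 (10.01 FPKM in WT PD), Spsb2 (10.07 FPKM) and Ak3 (10.09 FPKM) were just inside and Dact1 (9.60 FPKM), Pkd2l1 (9.57 FPKM) and Naglu (9.504 FPKM) just outside. At the LZ limit, Pmp2 had a Cnot4-null LZ mean of 0.996 FPKM and Ak3 a WT LZ mean of 0.993 FPKM, whereas 4932425I24Rik, at 1.01 FPKM in WT LZ, was left out.

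**Figure D3:**
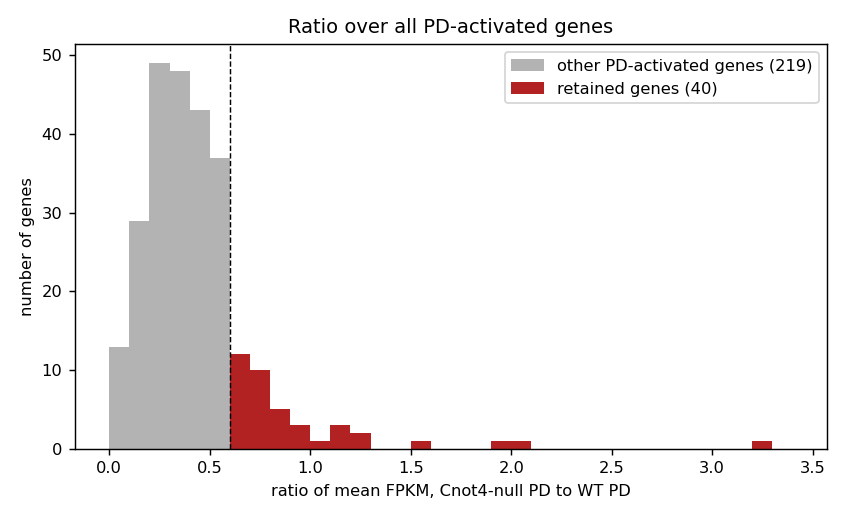
Number of PD-activated genes by the ratio of mean FPKM in Cnot4-null PD to WT PD, in steps of 0.1, with retained genes in red, the other genes in grey and the limit of 0.6 dashed. The retained genes are the upper tail of a distribution with a median of 0.375.

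The mean hides a difference between the Cnot4-null PD libraries. Relative to the WT PD mean, the median retained gene stood at 0.995 in replicate 1 and at 0.593 in replicate 2. In replicate 1, 39 of 40 were at or above 0.6, against 19 in replicate 2 and 18 in both. Replicate 1 was the higher library for 32 retained genes and for 197 of the 219 others, whose medians were 0.434 and 0.210. The fold between the duplicates had a median of 1.52 in Cnot4-null PD and 1.10 in WT PD. It was above 2 for 13 retained genes in Cnot4-null PD and for 0 in WT PD. Replicate 2 is also the library with the higher Leydig, Sertoli, macrophage and peritubular sums and the lower spermatid and pachytene sums, and the part of this in the ratios was not tested.

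**Figure D4:**
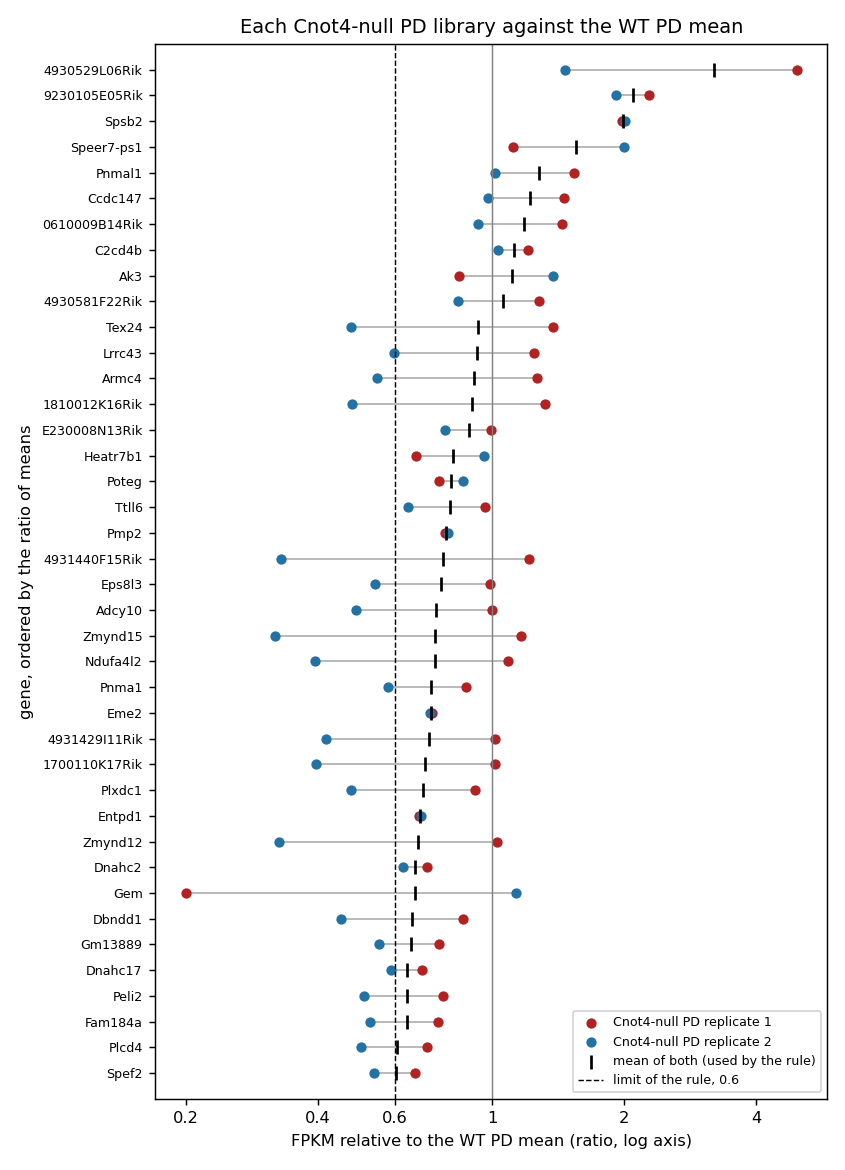
FPKM of each retained gene in Cnot4-null PD replicate 1 (red) and replicate 2 (blue) relative to the WT PD mean (log axis), with the ratio of means as a tick and the limit of 0.6 dashed. Replicate 1 lies to the right for 32 genes, and Gem is the widest pair, at 5.65-fold.

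Applying the rule to 1 replicate number and reading the ratio in the other uses libraries that the choice did not. With replicate 1 of each group, 82 genes were chosen, and in replicate 2 their median ratio was 0.394, with 19 at or above 0.6. With replicate 2, 19 genes were chosen, and in replicate 1 their median ratio was 1.09, with 16 at or above 0.6. The 82 and the 19 share 8 genes. The PD-activated genes that were below 0.6 in the same choices had median ratios of 0.194 (200 genes, read in replicate 2) and 0.470 (212 genes, read in replicate 1). These are other sets than the 40. Of the 40, 23 were among the 82 and 1 among the 200, and 13 were among the 19 and 16 among the 212. Without Cnot4-null PD replicate 1 the rule chose 23 genes, and without replicate 2 it chose 92. When every library had to pass its own limit, 7 genes were left, 4930581F22Rik, C2cd4b, Dnahc2, E230008N13Rik, Eme2, Entpd1 and Heatr7b1.

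Counts of calls by limma (adjusted p under 0.05, fitted over 15899 genes) are given beside the share of all genes called, and nothing is read from them because the rule used the same contrasts. Between WT PD and WT LZ, all 40 were higher at PD, against 21.6% of all genes. Between Cnot4-null PD and Cnot4-null LZ, all 40 were higher, against 27.8%. Between Cnot4-null PD and WT PD, 2 were higher (41.6% of all genes) and 0 lower (11.5% of all genes), and the same 2 and 0 had an unadjusted p under 0.05. After quantile normalization 15 were called, all lower (24.9% of all genes were called lower and 19.0% higher). After rescaling each library to the same median 12 were called, all lower (22.8% of all genes lower and 34.7% higher), and neither set shared a gene with the 2. By the interaction of genotype and stage, 0 were higher (26.0% of all genes) and 0 lower (3.97%), with 3 at an unadjusted p under 0.05 (1 higher, 2 lower). These p-values measure spread between these samples alone. In terms of the 4 PD values alone, 3 retained genes had their null values above the WT range (58.2% of all genes), 12 were lower (23.1%) and 25 overlapped. The median limma change at PD was -0.41 on the log2(FPKM + 1) scale, whereas the median over all genes was 0.66, so relative to all genes the retained genes stood at -1.07. After quantile normalization the median over all genes was -0.05, and after rescaling 0.42. This relative value was -1.06 after quantile normalization and -1.22 after rescaling each library to the same median.

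The retained genes are described below by known role, in groups made after the values were seen and not tested. Genes of the sperm tail and of cilia come first. The axoneme, the microtubule core of the tail, is driven by dynein arms. The dynein heavy chain gene Dnah17, listed under its older symbol Dnahc17, was at 19.2 and 18.7 FPKM in WT PD against 13.1 and 11.1 in Cnot4-null PD, after 0.1002 to 0.701 FPKM at LZ. The heavy chain gene Dnah2, listed as Dnahc2, was at 15.03 and 13.9 FPKM in WT PD against 10.2 and 9.02 in Cnot4-null PD. For both genes the null values lay under the WT range, and the duplicates were close. Armc4 encodes a protein that docks outer dynein arms on the axoneme. It was at 17.6 and 15.9 FPKM in WT PD against 21.3 and 9.18 in Cnot4-null PD, so its Cnot4-null libraries lay on either side of WT. Ttll6 encodes an enzyme that adds glutamate chains to tubulin and stood at 27.5 and 25.2 FPKM in WT PD against 25.4 and 16.9 in Cnot4-null PD. The groups overlapped, and its promoter is the window with 3 MYB motifs.

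Spef2, needed to build the sperm tail, was the retained gene nearest the ratio limit, at 10.97 and 9.71 FPKM in WT PD against 6.89 and 5.55 in Cnot4-null PD. Cfap58, listed as Ccdc147 and coding for a flagellar protein, was at 9.70 and 11.4 FPKM in WT PD against 15.4 and 10.3 in Cnot4-null PD, with overlapping groups. Jhy, listed as 4931429I11Rik, acts in ependymal cilia and its loss causes hydrocephalus in mice. It was at 20.3 and 17.9 FPKM in WT PD against 19.4 and 7.98 in Cnot4-null PD, at the WT level in replicate 1 only. The leucine-rich repeat gene Lrrc43 (19.4 and 14.6 FPKM in WT PD, 21.1 and 10.2 in Cnot4-null PD) also split, with replicate 1 above WT and replicate 2 below.

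The wider set of axoneme, flagellum and cilium genes gives the background. Of 69 tested, 22 fell and 11 rose between WT PD and Cnot4-null PD (limma), with a median log2 change of -0.88 against 0.66 over all genes. The list holds 4 PD-activated genes, of which Armc4, Dnahc2 and Dnahc17 were retained. The other, the dynein intermediate chain gene Dnaic2, was at 28.9 and 24.4 FPKM in WT PD against 16.0 and 3.26 in Cnot4-null PD, a ratio of 0.361. The list does not hold all such genes, so these counts are not a share of the axoneme. Ttll6, Spef2, Ccdc147, Lrrc43 and 4931429I11Rik were not on it. Nor were other genes of the axoneme that were PD-activated and not retained, named after their values were seen. Among them were the dynein heavy chain genes Dnahc7a (ratio 0.528), Dnahc7b (0.442) and Dnahc6 (0.429), and Armc2 (0.580), Wdr65 (0.558), Wdr52 (0.537), Ccdc135 (0.449) and Ccdc164 (0.357).

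Of the other 11 lists, only that of signalling, hormones and receptors held a retained gene. These lists do not hold all genes of their class either. Plcd4, Peli2, Spsb2 and Zmynd15, described below, were on none of them. Adcy10 encodes soluble adenylyl cyclase, which makes cAMP in response to bicarbonate and is required for sperm motility. It was at 12.03 and 11.7 FPKM in WT PD against 11.9 and 5.82 in Cnot4-null PD, so replicate 1 was at the WT level and replicate 2 below it. In that list 6 of 27 tested genes rose and 4 fell. PD-activated genes of the other lists were not retained. They were the hyaluronidase gene Hyal6 among acrosome genes (16 of 34 rose, 6 fell) and Slc9a10 and Slco6b1 among channels and transporters (8 of 25 rose, 6 fell). Cdkl1 was the case among kinases and phosphatases (17 of 36 rose, 9 fell). Among proteases and inhibitors (18 of 48 rose, 15 fell) they were Adam18, Adam1b, Capn11, Prss40 and Prss43. Asb4 was the case among ubiquitin and proteasome genes (17 of 34 rose, 6 fell) and Rfx4 among transcription regulators (13 of 37 rose, 11 fell). Lists with no PD-activated gene were testis isoforms of energy metabolism (10 of 28 rose, 10 fell) and chromatin and histone variants (18 of 29 rose, 3 fell). The same held for RNA binding and processing (6 of 35 rose, 12 fell) and meiotic division and spindle (13 of 37 rose, 11 fell). Over all genes 41.6% rose and 11.5% fell, and the lists were counted on the deposited scale alone.

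Other retained genes code for enzymes and regulators of signalling. Plcd4 encodes a phospholipase C that acts in the acrosome reaction and had the highest WT PD mean of the retained genes, at 44.7 and 40.0 FPKM in WT PD against 30.0 and 21.3 in Cnot4-null PD, after 0.233 to 1.11 FPKM at LZ. It was lower in the null cells, without overlap. Peli2, coding for a Pellino ubiquitin ligase, was at 14.2 and 14.2 FPKM in WT PD against 10.9 and 7.23 in Cnot4-null PD. Entpd1, coding for the surface enzyme CD39 that degrades extracellular ATP, was at 13.7 and 13.5 FPKM in WT PD, 9.25 and 9.32 FPKM in Cnot4-null PD, with close duplicates in both genotypes. Gem encodes a small GTPase that inhibits voltage-gated calcium channels. Its Cnot4-null PD libraries differed most of all retained genes, at 3.10 and 17.5 FPKM against 15.5 and 15.4 in WT PD, and here replicate 2 was the higher library. Eps8l3, related to the actin regulator Eps8, was at 9.24 and 10.8 FPKM in WT PD against 9.91 and 5.40 in Cnot4-null PD.

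Spsb2, 9230105E05Rik and 4930529L06Rik were the only retained genes above both WT values in both Cnot4-null PD libraries. Spsb2 encodes a SOCS box adaptor of a ubiquitin ligase that targets inducible nitric oxide synthase. It was at 10.5 and 9.63 FPKM in WT PD against 19.9 and 20.2 in Cnot4-null PD (limma log2 change 0.93, SE 0.33). The noncoding 9230105E05Rik was at 11.1 and 10.1 FPKM in WT PD, 24.1 and 20.3 FPKM in Cnot4-null PD (1.00, SE 0.35). These are the 2 genes called at PD. After quantile normalization the changes were 0.32 for Spsb2 and 0.42 for 9230105E05Rik, after rescaling to the same median 0.53 and 0.59, and neither gene was called in either. With the replicate number as a block, Spsb2 was not called (adjusted p = 0.0558). Leaving out any of the 4 PD libraries ended both calls, leaving out either WT LZ library ended that of Spsb2, and leaving out either Cnot4-null LZ library ended that of 9230105E05Rik. The changes themselves were 0.87 to 0.98 for Spsb2 and 0.88 to 1.11 for 9230105E05Rik without 1 PD library, and the same as with all libraries without 1 LZ library or with the block. The noncoding 4930529L06Rik had the highest ratio of all, 3.20, from 9.22 and 12.1 FPKM in WT PD against 52.7 and 15.6 in Cnot4-null PD, so replicate 1 makes up most of its mean.

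The remaining genes above the WT PD mean, Ccdc147 among them, had overlapping groups. Speer7-ps1, a transcribed pseudogene of the SPEER family, was at 16.5 and 25.0 FPKM in WT PD against 23.1 and 41.3 in Cnot4-null PD. Replicate 2 was the higher library in both genotypes. Pnmal1, of the paraneoplastic antigen Ma family derived from a retrotransposon, was at 16.1 and 14.8 FPKM in WT PD, 23.7 and 15.7 FPKM in Cnot4-null PD. Its relative Pnma1 was below WT, at 26.0 and 24.9 FPKM in WT PD, 22.2 and 14.7 FPKM in Cnot4-null PD. Ak3, a mitochondrial adenylate kinase, was at 10.5 and 9.72 FPKM in WT PD against 8.47 and 13.9 in Cnot4-null PD. C2cd4b (10.6 and 14.8 FPKM in WT PD, 15.3 and 13.1 FPKM in Cnot4-null PD) and the noncoding 0610009B14Rik (15.5 and 15.002 FPKM in WT PD, 21.9 and 14.1 FPKM in Cnot4-null PD) and 4930581F22Rik (16.5 and 17.2 FPKM in WT PD, 21.6 and 14.1 FPKM in Cnot4-null PD) completed this set.

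Zmynd15 and Eme2 have roles in the nucleus. Zmynd15 encodes a transcriptional repressor needed in spermatids. It was at 13.8 and 12.7 FPKM in WT PD against 15.4 and 4.22 in Cnot4-null PD, a difference of 3.64-fold between duplicates. Eme2, coding for a partner of the structure-specific nuclease MUS81, was at 10.02 and 10.3 FPKM in WT PD against 7.42 and 7.32 in Cnot4-null PD, with close duplicates. The other genes whose Cnot4-null PD duplicates differed most were 4931440F15Rik (15.2 and 4.12 FPKM) and 4930529L06Rik, and Zmynd12 came next (10.5 and 3.34 FPKM).

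Testis-expressed genes of less certain role were among the most abundant in WT PD. Poteg, of the POTE ankyrin repeat family, was at 32.8 and 33.4 FPKM in WT PD against 25.0 and 28.3 in Cnot4-null PD. Tex24 was at 28.6 and 27.2 FPKM in WT PD, 38.4 and 13.3 FPKM in Cnot4-null PD. The 2 genes lie near each other on the plus strand of chromosome 8 of mm9 (NCBIM37), Tex24 at chr8:28454866-28459660 and Poteg at chr8:28558142-28605644. The noncoding 1700110K17Rik was at 30.2 and 37.9 FPKM in WT PD, 34.5 and 13.5 FPKM in Cnot4-null PD. Dbndd1 was at 21.1 and 23.5 FPKM in WT PD, 19.1 and 10.1 FPKM in Cnot4-null PD, lower in the null cells.

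The remaining 8 retained genes had ratios from 0.638 to 0.898. Ndufa4l2, a paralog of a mitochondrial electron transport subunit, was at 17.6 and 17.95 FPKM in WT PD against 19.2 and 6.98 in Cnot4-null PD, so only replicate 2 was low. The noncoding 1810012K16Rik (13.3 and 12.5 FPKM in WT PD, 17.0 and 6.15 FPKM in Cnot4-null PD) and Plxdc1 (18.5 and 15.3 FPKM in WT PD, 15.4 and 8.04 FPKM in Cnot4-null PD) were also lowest in replicate 2. Pmp2, a fatty acid binding protein of myelin, was at 8.50 and 13.8 FPKM in WT PD, 8.69 and 8.80 FPKM in Cnot4-null PD, with the wider pair in WT. Heatr7b1 (10.3 and 11.5 FPKM in WT PD, 7.31 and 10.4 FPKM in Cnot4-null PD) and Ccdc180, listed as E230008N13Rik (16.0 and 14.6 FPKM in WT PD, 15.2 and 11.9 FPKM in Cnot4-null PD), had groups that overlapped. Fam184a (15.9 and 18.9 FPKM in WT PD, 13.0 and 9.13 FPKM in Cnot4-null PD) and Gm13889 (9.66 and 11.1 FPKM in WT PD, 7.85 and 5.74 FPKM in Cnot4-null PD) were lower in the null cells, without overlap.

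In position the retained genes were spread over most, but not all, of the autosomes. Of 37 matched to GENCODE vM1 (mm9), 0 lay on the X chromosome, and the same was true of the 184 matched among the other PD-activated genes, against 4.53% of all matched symbols. Chromosome 11 held 6 and chromosome 9 held 4, and nothing is read from these counts, since the shares of all symbols there are not given. Protein-coding genes were 32 of 37, a share of 86.5% against 83.2% in the other PD-activated genes and 92.5% in all symbols. Rik and Gm symbols made up 25.0%, 37.9% and 14.7%. Coding length, from the longest coding transcript, had a median of 1629 bases over 32 retained genes and 1179 over all 20115 genes with one. It was above 3000 bases for 8 retained genes (25.0%, against 10.7% of all), among them both dynein heavy chains at 13446 and 13389. Fewer than 80% of the other PD-activated genes had a coding transcript, so their lengths are not compared.

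Several retained genes share genomic space with another gene, and the strand of the reads is not given in the files. In GENCODE vM1, 23 of the matched genes overlapped another gene and 15 shared exon bases with one. Overlaps were not counted for all symbols, so these counts are not read as a trait of the retained genes. 1700110K17Rik shares exon bases with Gramd1b on the opposite strand, which was at 27.8 and 30.1 FPKM in WT PD, 22.9 and 19.0 in Cnot4-null PD and 0.775 to 2.42 at LZ, likewise higher at PD. Spsb2 shares exon bases with the opposite-strand glycolysis gene Tpi1, at 81.9 and 79.5 FPKM in WT PD against 69.7 and 88.1 in Cnot4-null PD. Eme2 shares exon bases with Spsb3 (99.1 and 77.6 FPKM in WT PD, 64.7 and 50.1 FPKM in Cnot4-null PD) and, on its own strand, with Mapk8ip3 (2.82 and 3.14 FPKM in WT PD, 6.48 and 13.8 FPKM in Cnot4-null PD). Of the 14 measured neighbours that share exon bases, 6 had both values for the null cells at PD above both for WT, 4 had both below and 4 overlapped, against 58.2% of all genes above and 23.1% below. Among the higher ones, Shmt2, which overlaps Ndufa4l2, was at 1.10 and 1.51 FPKM in WT PD against 11.3 and 12.8 in Cnot4-null PD. St3gal4, which overlaps 4930581F22Rik, was at 0.421 and 0.514 against 3.49 and 11.1 FPKM, and Dcps, at the same gene, at 21.6 and 24.5 against 34.3 and 26.7 FPKM. Rimkla, which overlaps Zmynd12, was at 0.232 and 0.0608 against 3.30 and 5.09 FPKM. Cxcl16, which overlaps Zmynd15, was at 1.65 and 1.41 against 5.60 and 7.33 FPKM. These neighbours are on the opposite strand from the retained gene. 9230105E05Rik overlaps Hmga2 without sharing exon bases, and Hmga2 stood at 23.3 and 25.5 FPKM in WT PD against 10.4 and 4.19 in Cnot4-null PD, opposite in direction. The part of these neighbours in the retained values was not tested.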

How the data were processed

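RNA-seq values of 8 libraries of sorted mouse spermatocytes were used, 2 for each genotype and stage, grouped by their labels. The deposited FPKM values were made by the authors, who per their methods and processing notes used TopHat2 2.1.1 for alignment to mm9 after trimming, and Cufflinks 2.2.1 with UCSC gene models for uniquely mapped reads. The methods describe Smart-Seq2 cDNA and the labels a TruSeq library from Trizol RNA, and which was used was not determined.

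Group means, ratios and counts were computed with Python 3.11.15, numpy 2.4.6 and pandas 2.3.3, and figures with matplotlib 3.10.9. Genes above 1 FPKM in at least 1 library (15899) were fitted as log2(FPKM + 1), where changes of low genes are compressed, with limma 3.58.1 in R 4.3.3, as 4 groups with 4 residual degrees of freedom, eBayes with a trend, two-sided tests and Benjamini-Hochberg adjustment. The deposited files hold no read counts. Total reads per library are in a supplementary table of the study and were not used, and no counting error is given.

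The members and the gene and marker lists were chosen with earlier results of these data known, after a shortened supplementary table of values had been read and the rule applied to its rows. All 40 retained genes are named. Named by a rule set beforehand are the 10 highest in WT PD, the 8 highest ratios, the 4 widest Cnot4-null PD pairs, those next to the limits, those in a list and those of well-known function. The other retained genes, genes next to the LZ limit, overlapping genes and genes that were not retained, of the lists or of the axoneme, were named after their values were seen. Counts of markers and of overlapping genes by position at PD, and the direction of calls after the 2 scalings, were added after the data were seen. Symbols were matched to GENCODE vM1 and RefSeq by symbol or synonym. Alternatives were other limits, scalings, pseudocount, filter and test settings, a replicate block and each library left out. The paper's other assays were not analysed here.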

Additional observations from a re-analysis of the deposited data

Results flagged for a closer look

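For Dbndd1 and Peli2 the null values lay above the WT range at LZ and under it at PD, so the genotype difference ran in opposite directions at the 2 stages. At LZ, Dbndd1 was at 0.136 and 0 FPKM for WT and 1.03 and 0.445 FPKM for the null cells. At PD it was at 21.1 and 23.5 FPKM for WT and 19.1 and 10.1 FPKM for the null cells. The difference at PD minus that at LZ was -1.32 on the log2(FPKM + 1) scale. At LZ, Peli2 was at 0.441 and 0.209 FPKM for WT and 0.530 and 0.886 FPKM for the null cells, and at PD at 14.2 and 14.2 FPKM against 10.9 and 7.23 FPKM, a difference between the stages of -0.98. As the rule that chose these genes used the same libraries, no test is drawn from the difference, and the LZ values are close to the lower end of what was measured. Neither gene was called by the interaction of genotype and stage. The share of all genes with this pattern was not counted, so nothing is read from these 2.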

How the results depend on the processing

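The number of retained genes depended on the limits and the libraries, and the causes were not tested. In place of 40, it was 14 and 110 with LZ limits of 0.5 and 2 FPKM, 96 and 8 with WT PD limits of 5 and 20 FPKM, and 77 and 18 with ratio limits of 0.5 and 0.8. It was 7 when every library had to pass, 11 after quantile normalization (8 shared with the 40), 28 after rescaling to the same median (17 shared), and 82 and 19 with replicate 1 or replicate 2 alone. Leaving out each library in turn gave 23 to 92, the ends without Cnot4-null PD replicate 1 and replicate 2. With the 40 kept, 13 had a ratio of at least 0.6 after quantile normalization and 17 after rescaling, readings chosen after seeing the data. The median ratio of the 40 was then 0.489 and 0.554, in place of 0.768. Where the genes are chosen again, the ratio limit holds up their median, so it says nothing of stability.

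Of members called between Cnot4-null PD and WT PD, in place of 2 there were 0 with a pseudocount of 0.1, no filter, a mean FPKM of at least 5 or an adjusted p under 0.01, 15 after quantile normalization and 12 after rescaling (all lower in both, 0 shared with the 2), and 0 to 9 with 1 library left out, the most without Cnot4-null PD replicate 1. With the replicate number as a block (replicate block) there was 1. Same-numbered libraries deviated from their group means with correlations of -0.065 to 0.194, and nothing says what they share. The adjusted p of Spsb2 ran from 0.0198 to 0.479 and that of 9230105E05Rik from 0.0164 to 0.357 over the alternatives. By the interaction, in place of 0, there were 1 with a pseudocount of 0.1, 3 after quantile normalization, 2 after rescaling, and 0 to 5 with 1 library left out, the most without Cnot4-null PD replicate 1. Between the stages, with both libraries of each compared group kept, all 40 were called in WT and 38 to 40 in Cnot4-null. The exception was the filter on a mean FPKM of at least 5, with 34 called in each genotype. Some retained genes do not pass that filter and were not tested there. A lone library was assumed to vary like the other groups.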
